A study of Mus musculus with 24 samples.

Results

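In this series, 10 genes of the YAP/TAZ pathway were followed in RNA of C2C12, an established mouse myoblast line that was differentiated into myotubes under 5 % O2. The genes are Cyr61, Ctgf, Ankrd1, Ankrd2, Amotl1, Amotl2, Lats2, Ajuba, Yap1 and Wwtr1. They were chosen by name, through their Ensembl identifiers in the mouse GRCm38 annotation, where Cyr61 is listed as Ccn1 and Ctgf as Ccn2. All 10 of 10 were found among the 55487 genes listed, and all 10 were among the 14541 genes with enough reads to be tested. The 24 libraries fall into 4 groups of 6. Wild-type myotubes at day 5 of differentiation were held for 2 h at 5 % or 1 % O2 and were either left unstimulated (the 5 % CTRL and 1 % CTRL groups) or electrically stimulated (5 % STIM, 1 % STIM) before harvest. The cells are 1 established line without nerve, vessel or load, and all groups shared the differentiation at 5 % O2. The study's methods describe fresh medium before the 2 h of exposure, without setting controls apart. They also describe an exchange of the medium before and after stimulation. They do not say whether the controls received this second exchange, so stimulation and this exchange cannot be told apart. The methods place the 2 h of exposure before stimulation and do not state when the controls were harvested. Stimulated myotubes may have spent longer at their O2 level, and stimulation and this time cannot be told apart either.

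YAP (encoded by Yap1) and TAZ (encoded by Wwtr1) are transcriptional coactivators that enter the nucleus when cells are spread, stretched or under actin tension, and that bind DNA through the TEAD factors. The Hippo kinase cascade opposes them: the kinases MST1 and MST2 activate LATS1 and LATS2, and the LATS kinases phosphorylate YAP and TAZ, which are then kept in the cytoplasm or degraded. Several of the genes that YAP and TAZ switch on feed back on the pathway, among them Lats2, the angiomotins Amotl1 and Amotl2, and Ajuba. Transcript levels report neither the phosphorylation nor the location of YAP and TAZ. In bulk RNA, fewer cells that express a gene and less RNA of it per cell cannot be told apart.

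The hexamer CATTCC is the core of the DNA site that TEAD factors bind, and it was searched on both strands in the 250 bases before each RefSeq start site (GRCm38.p6). For 9 of the 10 genes 11 windows were found, with 2 start sites each for Wwtr1 and Lats2. Ctgf had no window and was not searched. The letters were present in 7 of the 11 windows, which belong to 6 genes, namely Cyr61, Ankrd1, Amotl2, Ajuba, Yap1 and Wwtr1. The 2 windows of Wwtr1 overlap and hold the same hexamer, which is thus counted in both. Over all 32851 windows of this length, 12.6 % held them. The windows of 4 target and feedback genes that hold the hexamer are shown, so that its place can be seen (capitals mark CATTCC or its reverse complement GGAATG, each printed in the direction of the gene). They are those of Cyr61 at chr3:145649986-145650235 (minus strand), Ankrd1 at chr19:36119845-36120094 (minus strand), Amotl2 at chr9:102717554-102717803 (plus strand) and Ajuba at chr14:54577662-54577911 (minus strand).
Cyr61: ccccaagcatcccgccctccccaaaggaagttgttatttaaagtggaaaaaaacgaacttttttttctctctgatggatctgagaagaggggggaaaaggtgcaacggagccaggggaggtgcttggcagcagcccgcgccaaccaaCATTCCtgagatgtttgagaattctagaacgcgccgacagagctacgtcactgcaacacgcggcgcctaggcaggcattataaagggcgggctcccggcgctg
Ankrd1: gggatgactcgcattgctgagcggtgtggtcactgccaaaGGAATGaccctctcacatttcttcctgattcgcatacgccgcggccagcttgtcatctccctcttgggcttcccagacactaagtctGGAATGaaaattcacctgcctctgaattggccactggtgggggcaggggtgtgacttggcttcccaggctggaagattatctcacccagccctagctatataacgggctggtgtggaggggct
Amotl2: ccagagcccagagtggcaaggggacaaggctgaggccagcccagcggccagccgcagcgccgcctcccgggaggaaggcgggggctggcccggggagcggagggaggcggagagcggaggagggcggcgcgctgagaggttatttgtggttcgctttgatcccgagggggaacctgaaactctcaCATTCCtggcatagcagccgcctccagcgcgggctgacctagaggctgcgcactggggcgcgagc
Ajuba: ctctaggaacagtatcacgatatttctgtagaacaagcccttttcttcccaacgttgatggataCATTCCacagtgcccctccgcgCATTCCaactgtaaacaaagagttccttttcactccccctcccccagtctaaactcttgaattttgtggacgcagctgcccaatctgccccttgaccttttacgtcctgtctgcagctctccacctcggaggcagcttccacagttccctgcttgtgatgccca

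Counting back from the start site, the hexamer began at -103 in Cyr61 and at -65 in Amotl2. It stood at -186 and -164 in Ajuba, and on the opposite strand at -210 and -123 in Ankrd1. The windows of Ankrd2, Amotl1 and Lats2 did not contain these letters. The core of the hypoxia response element, ACGTG or GCGTG on either strand, was present in 5 of the 11 windows (those of Cyr61, Yap1 and Amotl1 and 1 each of Wwtr1 and Lats2) and in 38.6 % of all windows. An AP-1 site, TGANTCA, was in none of the windows of these genes and in 6.75 % of all windows. The half-site of the cAMP response element, TGACG or CGTCA, was present in the windows of Cyr61 and Amotl1 and in 1 of Lats2, and in 17.8 % of all windows. In Amotl1 a match to the half-site overlapped a match to the hypoxia core, as did one in Lats2. A match of letters is a description and not a bound site.

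Libraries held between 26541858 and 28173745 reads, and the members were read deeply, with between 1309 and 51108 reads per gene and library. Values are normalised counts, the reads of a gene divided by the size factor of the library, and are given as mean ± SD with n = 6. The coefficient of variation within a group lay between 1.96 % and 10.1 % over the 10 genes. The library of 1 % CTRL replicate 1 stood apart from its group: its log2 values differed from the mean of the others with an SD of 0.447, against 0.298 to 0.354 in the other 23 libraries. Without it, the same number of members passed the test in both comparisons of O2 and in both comparisons of stimulation, and 4 in place of 3 passed for the interaction described further on. Markers of myotubes summed to between 271008 and 360812 normalised counts per library, while those of endothelial cells summed to between 6.72 and 25.7, those of macrophages to between 38.1 and 89.1, and those of adipocytes to at most 6.29. Of the 4 adipocyte markers, Plin1 and Cidec were at 0 in all libraries.

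**Figure D1:**
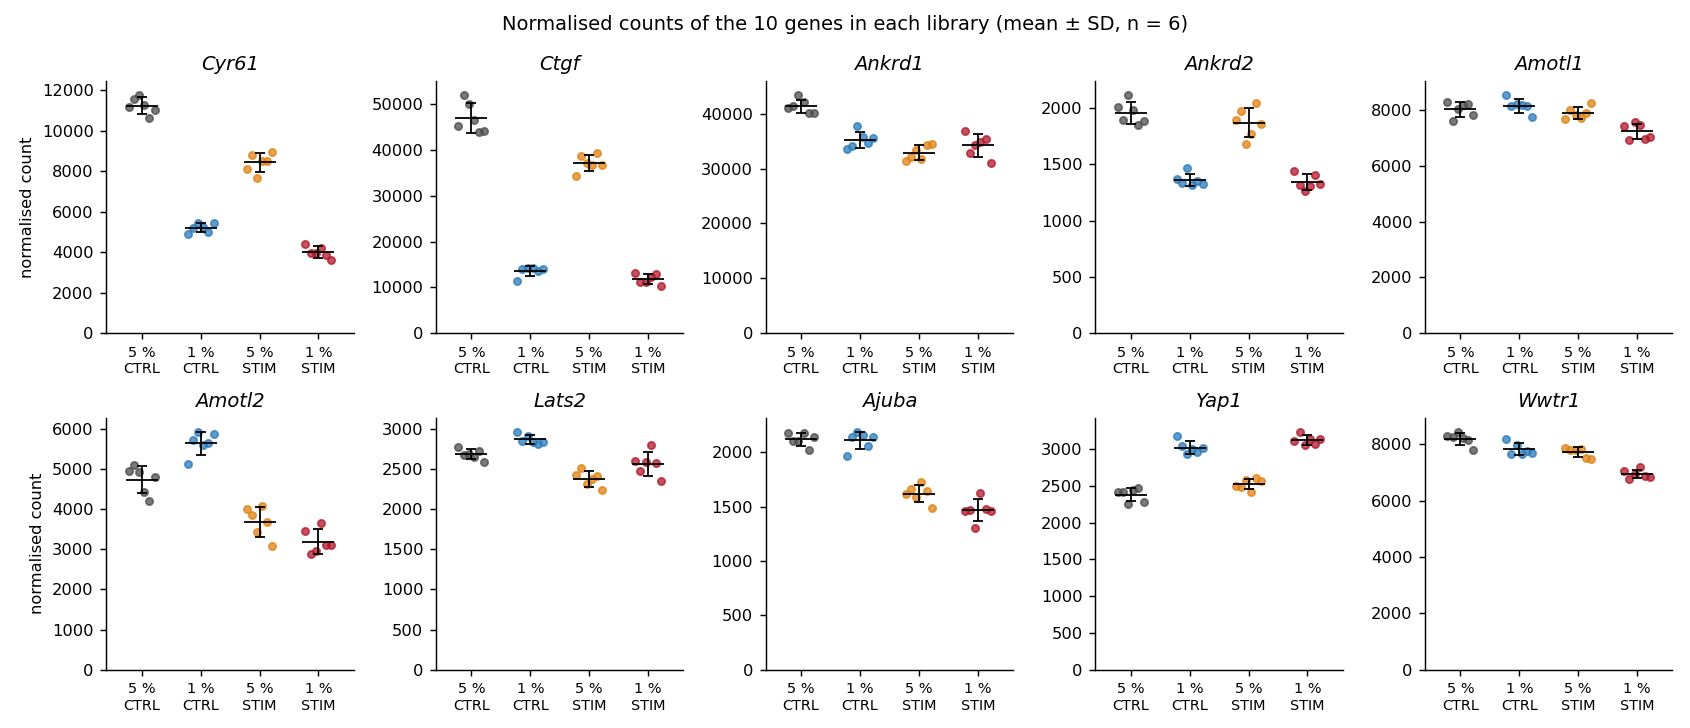
Normalised counts of the 10 genes (vertical axes, each starting at 0) in the 4 groups (horizontal axes). Dots are the 6 libraries of a group, and bars show the mean ± SD. Cyr61 and Ctgf stand lower at 1 % O2 with no overlap between the O2 levels, Yap1 stands higher at 1 % O2, and Amotl2 and Ajuba stand lower after stimulation.

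Of the coactivators, Yap1 was higher at 1 % O2 and Wwtr1 was lowest in stimulated myotubes at 1 % O2. Yap1 (chromosome 9, 7931999 to 8004596, minus strand) ranged from 2251 to 2464 normalised counts in 5 % CTRL (median 2412), from 2936 to 3171 in 1 % CTRL (median 3001), from 2421 to 2611 in 5 % STIM (median 2535) and from 3061 to 3231 in 1 % STIM (median 3123). Every library at 1 % O2 was above every library at 5 % O2. The mean rose from 2377 ± 90.2 in 5 % CTRL to 3018 ± 84.2 in 1 % CTRL, a log2 difference of 0.34 (SE 0.03, limma adjusted p = 2.32e-12), and from 2526 ± 71.1 in 5 % STIM to 3122 ± 62.3 in 1 % STIM, a log2 difference of 0.31 (limma adjusted p = 5.01e-11).

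After stimulation the differences of Yap1 were small. At 5 % O2 the value was 0.09 on the log2 scale (limma adjusted p = 0.0270) and the groups overlapped. This call was lost without 5 % CTRL replicate 3 or 6 or 5 % STIM replicate 3, 5 or 6, where Yap1 gave log2 differences of 0.072, 0.075, 0.082, 0.078 and 0.083, and with no filter on low counts. At 1 % O2 the difference of Yap1 was 0.05 (95 % confidence interval -0.01 to 0.11) and did not pass the test.

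Wwtr1 (chromosome 3, 57455649 to 57575910, minus strand) ranged from 7792 to 8442 normalised counts in 5 % CTRL (median 8248), from 7653 to 8177 in 1 % CTRL (median 7733), from 7498 to 7891 in 5 % STIM (median 7803) and from 6777 to 7195 in 1 % STIM (median 6905). The 1 % STIM libraries were all below those of every other group. Wwtr1 was lower in 1 % STIM (6946 ± 154) than in 1 % CTRL (7825 ± 211, log2 difference -0.17, SE 0.03, limma adjusted p = 3.17e-06) and lower than in 5 % STIM (7727 ± 169, log2 difference -0.15, limma adjusted p = 4.27e-06).

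In unstimulated myotubes Wwtr1 was slightly lower at 1 % O2 (log2 difference -0.07, limma adjusted p = 0.0240), with overlapping groups. That call was lost without 5 % CTRL replicate 3, 1 % CTRL replicate 2 or 1 % CTRL replicate 4, where Wwtr1 gave log2 differences of -0.059, -0.061 and -0.061, and the sign turned to 0.014 (limma adjusted p = 0.650) when libraries were rescaled to equal totals. Per kb of exon, the level of Yap1 relative to Wwtr1 without stimulation was 0.150 ± 0.0063 at 5 % O2 and 0.199 ± 0.0054 at 1 % O2, and after stimulation it was 0.169 ± 0.0079 and 0.232 ± 0.0079. The ratio of Yap1 to Wwtr1 in the libraries at 1 % O2 (0.190 at the lowest) did not overlap that at 5 % O2 (0.179 at the highest). This ratio was chosen after the values were seen and was not tested.

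Cyr61 and Ctgf encode secreted CCN proteins, matricellular proteins that bind integrins, and both genes are a usual readout of YAP and TAZ activity. Their transcripts gave the largest differences by O2 among the 10 genes, and both were lower at 1 % O2. Cyr61 (chromosome 3, 145646976 to 145649981, minus strand) ranged from 10603 to 11748 normalised counts in 5 % CTRL (median 11208), from 4902 to 5454 in 1 % CTRL (median 5203), from 7684 to 8962 in 5 % STIM (median 8511) and from 3619 to 4419 in 1 % STIM (median 3960). No pair of groups overlapped, and the order 5 % CTRL, 5 % STIM, 1 % CTRL, 1 % STIM held with every neighbouring pair differing past the threshold. The mean of Cyr61 in 1 % CTRL (5199 ± 223) was 46.3 % of that in 5 % CTRL (11233 ± 408), a log2 difference of -1.11 (SE 0.04, limma adjusted p = 8.89e-22), and the mean in 1 % STIM (4006 ± 278) was 47.5 % of that in 5 % STIM (8430 ± 470), a log2 difference of -1.07 (limma adjusted p = 2.76e-21). After stimulation Cyr61 was lower at 5 % O2 (log2 difference -0.42, limma adjusted p = 7.58e-10) and stood at 77.1 % of the control at 1 % O2 (log2 difference -0.38, limma adjusted p = 4.67e-09).

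Ctgf (chromosome 10, 24595442 to 24598683, plus strand) ranged from 43947 to 51981 normalised counts in 5 % CTRL (median 45967), from 11422 to 14313 in 1 % CTRL (median 13977), from 34281 to 39418 in 5 % STIM (median 36966) and from 10229 to 13087 in 1 % STIM (median 11721). Libraries at 5 % O2 and at 1 % O2 did not overlap, and at 1 % O2 stimulated and control libraries did. The mean fell from 47038 ± 3285 in 5 % CTRL to 13594 ± 1099 in 1 % CTRL (28.9 % of the level at 5 % O2, log2 difference -1.79, SE 0.06, limma adjusted p = 3.16e-17) and was 11816 ± 1134 in 1 % STIM against 37180 ± 1818 in 5 % STIM (31.8 %, log2 difference -1.66, limma adjusted p = 1.78e-16). After stimulation at 5 % O2 the level of Ctgf was 79.0 % of the control (log2 difference -0.34, limma adjusted p = 3.10e-04).

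At 1 % O2 the response of Ctgf to stimulation was -0.20 on the log2 scale (95 % confidence interval -0.33 to -0.08, limma adjusted p = 0.0204). It no longer passed without 1 % STIM replicate 3 (-0.188, limma adjusted p = 0.0501) or replicate 6 (-0.163, limma adjusted p = 0.0517), or when only those 2 groups were fitted (limma adjusted p = 0.0621). The lowest Ctgf value of 1 % CTRL was that of replicate 1, and without that library the difference was -0.25 (limma adjusted p = 0.00155). Of the exon bases of Ctgf, 23.2 % lie opposite Gm15270, and the counting is not stated to use strand, so reads of these genes cannot be told apart there. Gm15270 was listed at 31.5 ± 8.74 normalised counts in 5 % CTRL and 8.81 ± 4.57 in 1 % CTRL.

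The amount of Ctgf relative to Cyr61, per kb of exon, was 2.95 ± 0.121 in 5 % CTRL and 3.12 ± 0.195 in 5 % STIM, but 1.84 ± 0.11 in 1 % CTRL and 2.08 ± 0.147 in 1 % STIM. The lowest ratio at 5 % O2 (2.83) was above the highest at 1 % O2 (2.37). The ratio was not tested.

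The muscle ankyrin repeat genes, which encode proteins that bind titin in the sarcomere and also enter the nucleus, behaved differently from each other. Ankrd1 (chromosome 19, 36111961 to 36120099, minus strand) ranged from 40102 to 43380 normalised counts in 5 % CTRL (median 41250), from 33592 to 37772 in 1 % CTRL (median 35124), from 31326 to 34526 in 5 % STIM (median 32761) and from 31042 to 36934 in 1 % STIM (median 34579). The 5 % CTRL libraries stood above all others, while the remaining groups overlapped. Ankrd1 fell from 41372 ± 1241 in 5 % CTRL to 35246 ± 1503 in 1 % CTRL (log2 difference -0.23, SE 0.04, limma adjusted p = 6.86e-07) and to 32915 ± 1333 in 5 % STIM (log2 difference -0.33, limma adjusted p = 4.82e-09). The level in 1 % STIM (34250 ± 2063) did not differ from 1 % CTRL past the threshold (log2 difference -0.04, 95 % confidence interval -0.11 to 0.03), nor from 5 % STIM (0.06, interval -0.01 to 0.12). Ankrd1 was called higher in 1 % STIM than in 5 % STIM without 1 % STIM replicate 6 (log2 difference 0.084, limma adjusted p = 0.0320) and with libraries rescaled to equal totals (0.13, limma adjusted p = 0.00140).

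Ankrd2 (chromosome 19, 42036000 to 42045110, plus strand) ranged from 1851 to 2113 normalised counts in 5 % CTRL (median 1942), from 1316 to 1468 in 1 % CTRL (median 1342), from 1682 to 2042 in 5 % STIM (median 1875) and from 1260 to 1443 in 1 % STIM (median 1322). The 2 O2 levels did not overlap, and the stimulated and control libraries at each of them did. Ankrd2 was 69.6 % of the 5 % CTRL level in 1 % CTRL (1361 ± 56.0 against 1956 ± 97.8, log2 difference -0.52, SE 0.04, limma adjusted p = 1.01e-12) and 71.8 % of the 5 % STIM level in 1 % STIM (1343 ± 67.9 against 1870 ± 131, log2 difference -0.48, limma adjusted p = 1.21e-11). The responses of Ankrd2 to stimulation were -0.07 at 5 % O2 (95 % confidence interval -0.15 to 0.02) and -0.02 at 1 % O2 (interval -0.10 to 0.06) and did not pass the test.

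The feedback genes of the pathway were lower after stimulation in 7 of the 8 gene and O2 combinations, where 12.0 % of all genes tested were lower at 5 % O2 and 10.8 % at 1 % O2. Lats2 encodes a kinase that phosphorylates YAP and TAZ (chromosome 14, 57689662 to 57758388, minus strand). It ranged from 2590 to 2770 normalised counts in 5 % CTRL (median 2678), from 2807 to 2958 in 1 % CTRL (median 2843), from 2232 to 2513 in 5 % STIM (median 2389) and from 2342 to 2793 in 1 % STIM (median 2581). Differences were small and went in opposite directions with O2 and with stimulation. Lats2 was higher in 1 % CTRL (2866 ± 56.2) than in 5 % CTRL (2681 ± 61.1, log2 difference 0.10, limma adjusted p = 0.0131) and higher in 1 % STIM (2560 ± 150) than in 5 % STIM (2375 ± 97.3, log2 difference 0.11, limma adjusted p = 0.00661). It was lower in 5 % STIM than in 5 % CTRL (log2 difference -0.18, limma adjusted p = 1.67e-04) and in 1 % STIM than in 1 % CTRL (log2 difference -0.16, limma adjusted p = 2.97e-04). Of its exon bases, 42.4 % are shared on the same strand with Gm49361, which was listed at 0 in all groups but 1 % STIM, where it reached 16.4 in a library.

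Amotl1 and Amotl2 encode angiomotin-like scaffolds at cell junctions and actin that bind YAP and hold it outside the nucleus. Amotl1 (chromosome 9, 14541966 to 14645056, minus strand) ranged from 7628 to 8302 normalised counts in 5 % CTRL (median 8129), from 7748 to 8546 in 1 % CTRL (median 8175), from 7699 to 8265 in 5 % STIM (median 7869) and from 6955 to 7587 in 1 % STIM (median 7238). Only the 1 % STIM group stood apart, below the libraries of each other group. Amotl1 was 7249 ± 283 in 1 % STIM against 8175 ± 255 in 1 % CTRL (log2 difference -0.17, SE 0.03, limma adjusted p = 2.08e-05) and against 7904 ± 209 in 5 % STIM (log2 difference -0.13, limma adjusted p = 4.07e-04). The difference from 5 % STIM did not pass with libraries rescaled to equal totals (-0.06, limma adjusted p = 0.0747). Between the unstimulated groups the log2 difference was 0.02 (95 % confidence interval -0.03 to 0.08), and after rescaling it was 0.10 and passed.

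Amotl2 (chromosome 9, 102716672 to 102733418, plus strand) ranged from 4205 to 5087 normalised counts in 5 % CTRL (median 4851), from 5110 to 5914 in 1 % CTRL (median 5675), from 3084 to 4063 in 5 % STIM (median 3766) and from 2872 to 3653 in 1 % STIM (median 3101). Unstimulated libraries were all above stimulated ones, with the highest values at 1 % O2. Amotl2 rose from 4729 ± 341 in 5 % CTRL to 5638 ± 287 in 1 % CTRL (log2 difference 0.25, SE 0.07, limma adjusted p = 0.00229), and was lower in 1 % STIM (3189 ± 304) than in 5 % STIM (3683 ± 371, log2 difference -0.21, limma adjusted p = 0.0115), where the groups overlapped and rescaling to equal totals ended the call (-0.14, limma adjusted p = 0.0985). Amotl2 was the only 1 of the 10 genes called in opposite directions by the O2 level in unstimulated and in stimulated myotubes. After stimulation the mean of Amotl2 was 77.9 % of the control at 5 % O2 (log2 difference -0.36, limma adjusted p = 3.17e-04) and 56.6 % at 1 % O2 (log2 difference -0.83, SE 0.07, limma adjusted p = 1.74e-09). Per kb of exon, the level of Amotl2 relative to Amotl1 without stimulation was 0.943 ± 0.0888 at 5 % O2 and 1.11 ± 0.0838 at 1 % O2, and after stimulation it was 0.747 ± 0.0906 and 0.704 ± 0.0569, a ratio that was not tested.

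Ajuba encodes a LIM protein that binds LATS kinases at cell junctions under tension and restrains them (chromosome 14, 54567472 to 54577558, minus strand). It ranged from 2023 to 2181 normalised counts in 5 % CTRL (median 2122), from 1966 to 2187 in 1 % CTRL (median 2144), from 1486 to 1723 in 5 % STIM (median 1627) and from 1306 to 1630 in 1 % STIM (median 1465). Stimulated and unstimulated libraries of Ajuba did not overlap. The mean fell from 2120 ± 58.2 to 1619 ± 79.8 at 5 % O2 (76.4 %, log2 difference -0.39, SE 0.04, limma adjusted p = 2.13e-09) and from 2109 ± 82.3 to 1468 ± 103 at 1 % O2 (69.6 %, log2 difference -0.52, limma adjusted p = 1.43e-12). Without stimulation the O2 levels differed by -0.01 on the log2 scale (95 % confidence interval -0.09 to 0.07), which did not pass. In stimulated myotubes Ajuba was lower at 1 % O2 (log2 difference -0.14, limma adjusted p = 0.00242), with overlapping groups and no call after rescaling to equal totals (-0.07, limma adjusted p = 0.125).

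**Figure D2:**
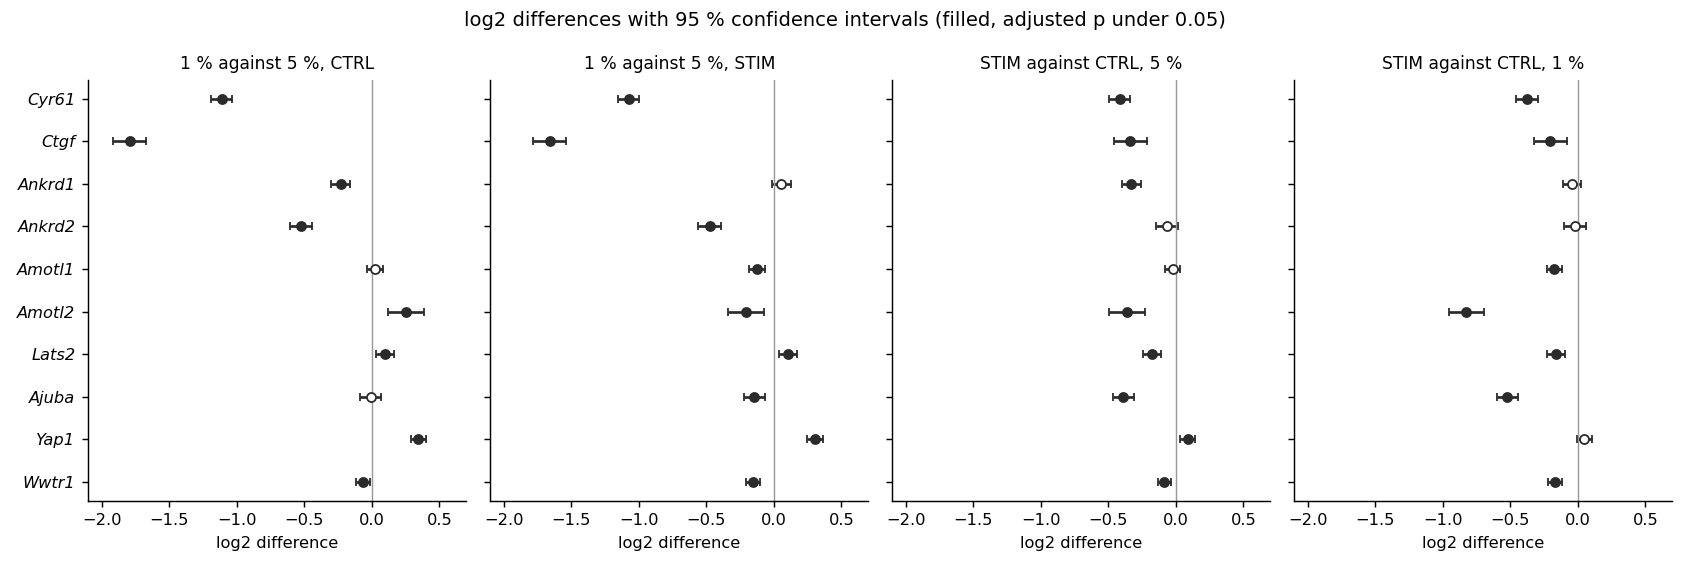
log2 differences of the 10 genes (horizontal axes) with 95 % confidence intervals in 4 comparisons, 1 % against 5 % O2 without and with stimulation and stimulated against control at 5 % and 1 % O2. Filled circles passed limma at an adjusted p under 0.05. Ctgf (-1.79 and -1.66) and Cyr61 (-1.11 and -1.07) lie far to the left in the O2 comparisons, and Amotl2 (-0.83) does so for stimulation at 1 % O2.

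Seen by comparison, 1 % O2 without stimulation went with lower Cyr61, Ctgf, Ankrd1, Ankrd2 and Wwtr1 and higher Yap1, Amotl2 and Lats2, so 8 of the 10 genes were called. This share has to be read against all genes, since 59.9 % of those tested were called in the same comparison, 29.4 % higher and 30.5 % lower. Genes were tested from a normalised count of 10 in 6 libraries upwards, while each member had at least 1309 reads in every library. All genes tested are thus not matched to the members in depth, here or in the other comparisons. Whether depth raised the share of members called was not tested. The groups did not overlap for 7 of the 10, against 38.2 % of all genes tested. The median log2 difference of the 10 genes was -0.04, and that of all genes was 0.0015. With libraries rescaled to equal totals the median of all genes was 0.08, the calls over all genes went from 4271 higher and 4437 lower to 5669 and 3378, and 4 of the 10 genes were called in each direction. In stimulated myotubes 1 % O2 went with lower Cyr61, Ctgf, Ankrd2, Amotl1, Amotl2, Ajuba and Wwtr1 and higher Lats2 and Yap1, which is 9 of 10 called against 57.4 % of all genes, 29.0 % higher and 28.4 % lower. Non-overlap was seen for 6 of the 10 and for 37.3 % of all genes. After rescaling, 3 were called higher and 4 lower, and the calls over all genes went from 4210 higher and 4136 lower to 5466 and 3182. Cyr61, Ctgf, Ankrd2 and Wwtr1 were lower at 1 % O2 in both settings, and Lats2 and Yap1 were higher in both.

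The comparisons of stimulation had a far lower background. At 5 % O2, 7 of the 10 genes were lower after stimulation (Cyr61, Ctgf, Ankrd1, Amotl2, Lats2, Ajuba and Wwtr1) and Yap1 was higher, while 21.4 % of all genes tested were called, 12.0 % of them lower and 9.44 % higher, each as a share of genes tested. For 6 of the 10 the groups did not overlap, against 11.1 % of all genes. The median of the 10 genes was -0.25 and that of all genes was -0.0076. At 1 % O2, 7 of the 10 were lower (Cyr61, Ctgf, Amotl1, Amotl2, Lats2, Ajuba and Wwtr1) and 0 higher, against 22.3 % of all genes called, with 10.8 % lower and 11.5 % higher. Here 6 of the 10 did not overlap, against 11.2 % of all genes, and the median of the 10 was -0.17 against -0.0031. Cyr61, Ctgf, Amotl2, Lats2, Ajuba and Wwtr1 were lower after stimulation at both O2 levels. Rescaling to equal totals moved the calls over all genes from 1372 higher and 1743 lower to 1860 and 1133 at 5 % O2, and from 1668 and 1577 to 2142 and 1293 at 1 % O2. It ended the call of Wwtr1 at 5 % O2 (log2 difference -0.05, limma adjusted p = 0.124) and no other call of the 10 genes in these comparisons. That 0 members were higher at 1 % O2 held for edgeR, DESeq2 and limma voom on the reads, and for limma at an unadjusted p under 0.05.

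Whether the response to stimulation depended on the O2 level was tested by the interaction, the log2 response at 1 % O2 minus that at 5 % O2. Of the 10 genes 3 passed, against 11.3 % of all genes, 5.88 % with a positive and 5.43 % with a negative value. Ankrd1 had the positive value (0.29, SE 0.05, limma adjusted p = 1.09e-04), and was lower after stimulation at 5 % O2 and not called at 1 % O2. Amotl2 (-0.46, SE 0.10, limma adjusted p = 0.00229) and Amotl1 (-0.15, SE 0.04, limma adjusted p = 0.0151) had negative values. Amotl2 fell more after stimulation at 1 % O2 than at 5 % O2. Amotl1 was lower after stimulation at 1 % O2 and not called at 5 % O2. With libraries rescaled to equal totals the interaction values were 0.28 for Ankrd1, -0.47 for Amotl2 and -0.16 for Amotl1. Ajuba (-0.14) and Wwtr1 (-0.09) did not pass, and Ajuba did so without 1 % CTRL replicate 1 (-0.155, limma adjusted p = 0.0479) or 1 % STIM replicate 4 (-0.166, limma adjusted p = 0.0391). For Cyr61 the interaction was 0.04 (95 % confidence interval -0.07 to 0.15), for Ctgf 0.13 (interval -0.04 to 0.31), for Ankrd2 0.05 (interval -0.07 to 0.16), for Lats2 0.01 (interval -0.08 to 0.10) and for Yap1 -0.04 (interval -0.12 to 0.04).

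**Figure D3:**
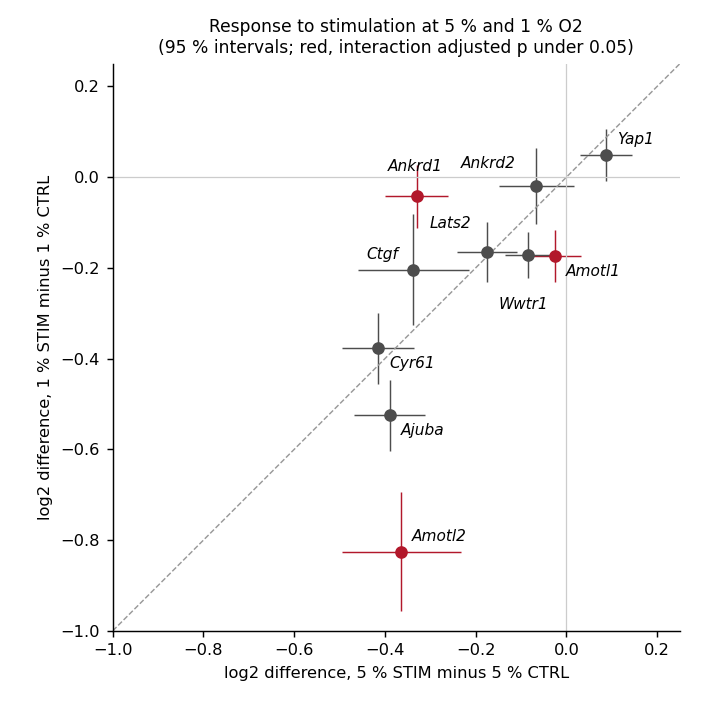
Response to stimulation as a log2 difference at 5 % O2 (horizontal axis) and at 1 % O2 (vertical axis), with 95 % confidence intervals. The dashed line marks equal responses. Red marks Ankrd1 (interaction 0.29), which lies above the line, and Amotl1 (-0.15) and Amotl2 (-0.46), which lie below it.

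The comparison of 1 % STIM with 5 % CTRL joins both changes of condition. In it 9 of the 10 genes were called (58.9 % of all genes, 29.2 % higher and 29.7 % lower) and 9 did not overlap (37.3 % of all genes). Ctgf was at 25.1 % and Cyr61 at 35.7 % of the 5 % CTRL level, Amotl2 at 67.4 %, Ankrd2 at 68.6 %, Ajuba at 69.2 %, Ankrd1 at 82.8 %, Wwtr1 at 84.7 % and Amotl1 at 90.1 %. Yap1 was at 131 %. Lats2 was at 95.5 % and did not pass (limma adjusted p = 0.0796). Rescaling to equal totals shifted the median of all genes to 0.10 here, turned the uncalled log2 difference of Lats2 from -0.07 to 0.033 and ended the call of Amotl1 (-0.048, limma adjusted p = 0.114).

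Between 5 % STIM and 1 % CTRL, which differ in both conditions the other way round, 3 of the 10 were higher and 5 lower in 5 % STIM, where 60.4 % of all genes were called, 30.2 % in each direction. The groups did not overlap for 7 of the 10 and for 40.6 % of all genes.

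Ordered by mean, the 4 group levels of each gene give 30 neighbouring pairs over the 10 genes, of which 20 differed past the threshold. The levels that did not differ from their neighbour were 1 % CTRL, 1 % STIM and 5 % STIM for Ankrd1, and 1 % CTRL, 5 % CTRL and 5 % STIM for Amotl1. The ends of the run of Ankrd1 did differ, with 5 % STIM below 1 % CTRL (log2 difference -0.099, limma adjusted p = 0.0152), while those of Amotl1 did not pass the test (-0.048, limma adjusted p = 0.152). For Ankrd2 they were those of equal O2, 5 % CTRL with 5 % STIM and 1 % CTRL with 1 % STIM. The other pairs were 5 % CTRL with 1 % STIM for Lats2, 5 % CTRL with 1 % CTRL for Ajuba, 1 % STIM with 1 % CTRL for Yap1 and 1 % CTRL with 5 % STIM for Wwtr1. For Cyr61, Ctgf and Amotl2 all neighbours differed.

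Levels of different genes were compared per kb of merged exon, the bases covered by any transcript of a gene. In 5 % CTRL the level was 16441 ± 1148 normalised counts per kb for Ctgf, 14335 ± 430 for Ankrd1 and 5564 ± 202 for Cyr61. Ankrd2 (1719 ± 85.9) and Wwtr1 (1716 ± 45.9) followed, then Amotl1 (799 ± 25.8), Amotl2 (752 ± 54.2), Ajuba (582 ± 16.0), Lats2 (385 ± 8.77) and Yap1 (257 ± 9.75). By this length Yap1 was the lowest of the 10 in every group. By longest transcript (5282 in place of 9257 bases for Yap1, 5191 in place of 6971 for Lats2), Yap1 was lowest only in 5 % CTRL. In the other groups the mean of Lats2 was then below that of Yap1. In 1 % STIM the mean of Ajuba (3397 in place of 3646 bases) was below both. By merged exon the order changed with O2: in 1 % CTRL, Ankrd1 (12213 ± 521 per kb) was above Ctgf (4752 ± 384), and Amotl2 (896 ± 45.6) was above Amotl1 (812 ± 25.3). By longest transcript, Ankrd1 (2020 in place of 2886 bases) was above Ctgf (2490 in place of 2861) in 5 % CTRL already. So was Amotl2 (4427 in place of 6289) above Amotl1 (8957 in place of 10064). The per kb ratios between genes given above also depend on the length used, while the fold between their groups does not. From the highest to the lowest of the 10 genes, the levels per kb of merged exon spanned 64.0-fold in 5 % CTRL and 35.2-fold in 1 % STIM. These spans depend on the length used as well.

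**Figure D4:**
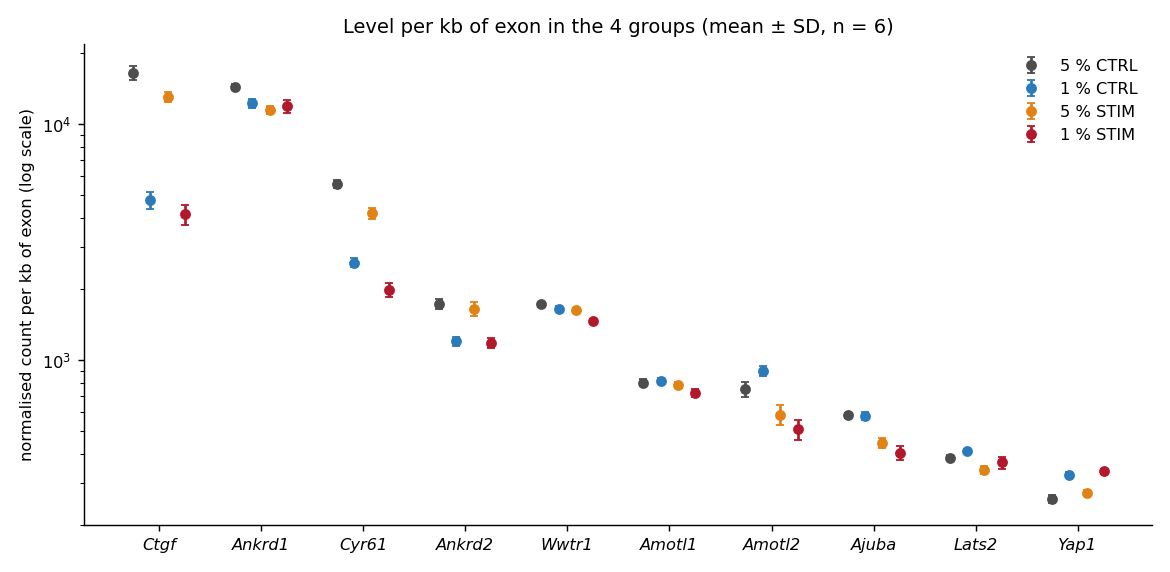
Level per kb of merged exon (vertical axis, log scale) of the 10 genes, ordered by 5 % CTRL, in the 4 groups as mean ± SD of 6 libraries. Ctgf and Cyr61 separate by O2, and Ankrd1 stays between 11405 and 14335 in all groups.

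The genes whose pattern was most like that of 4 of the members were found by the root mean square difference of centred log2 values over the 24 libraries, among 10784 genes. For Cyr61 they were E2f2 (0.0961), a transcription factor of cell cycle genes, Nuak2 (0.103), a kinase of the AMPK family, and Has2 (0.130), a hyaluronan synthase. The spread of Cyr61 about its own group means was 0.0697. For Ctgf they were Errfi1 (0.189), an inhibitor of EGF receptor signalling, Sema7a (0.195), a membrane-anchored semaphorin, and Slc30a1 (0.200), a zinc exporter, against an own spread of 0.102. For Ankrd1 they were Rrp8 (0.0601), Surf2 (0.0660) and Pum3 (0.0708), against 0.0590, and for Yap1 they were Oxnad1 (0.0447), Clcn6 (0.0543), which belongs to the CLC chloride transport family, and Dcps (0.0562), a decapping scavenger enzyme, against 0.0385. Nuak2 is also in the list of other YAP/TAZ targets described next.

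After the group means were removed, the members varied together to different degrees over the 24 libraries, which share depth and scaling between genes. Pearson's r was 0.746 for Ctgf and Ankrd1, 0.677 for Cyr61 and Ankrd1, 0.652 for Cyr61 and Ctgf, 0.732 for Amotl2 and Ajuba and 0.629 for Lats2 and Wwtr1. It was -0.504 for Amotl2 and Yap1 and -0.0068 for Yap1 and Wwtr1. These values are a description.

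The wider pathway moved in mixed directions with O2, as did all genes tested. Counts of this and the following lists are to be read against the shares of all genes tested, which were not matched to the lists in depth. At 1 % O2, 29.4 % were higher and 30.5 % lower without stimulation, and 29.0 % and 28.4 % with it. After stimulation, 9.44 % were higher and 12.0 % lower at 5 % O2, and 11.5 % and 10.8 % at 1 % O2. Of 17 other reported YAP/TAZ targets, 6 were called higher and 8 lower at 1 % O2 without stimulation and 5 higher and 9 lower with it. Nuak2 went from 629 ± 18.3 normalised counts in 5 % CTRL to 314 ± 22.5 in 1 % CTRL (log2 difference -1.0, limma adjusted p = 2.94e-15), and Nt5e, which encodes the ecto-nucleotidase CD73, went from 312 ± 14.3 to 179 ± 20.9 (log2 difference -0.80, limma adjusted p = 1.04e-09). F3, tissue factor, was also lower (log2 difference -0.37, limma adjusted p = 9.80e-04). Of the 17, 2 were higher and 2 lower after stimulation at 5 % O2. At 1 % O2, limma called 0 higher and 3 lower, with 1 higher at an unadjusted p under 0.05 and 0 by edgeR, DESeq2 and limma voom. Nuak2 was lower in both (log2 difference -0.44 and -0.47). Gadd45b, a stress-induced gene, was higher at 5 % O2 (log2 difference 0.35, limma adjusted p = 0.0171), from 927 ± 103 to 1177 ± 122, and its interaction was -0.53 (limma adjusted p = 0.0183). The difference in share between the members and this list was not tested.

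Of 17 Hippo kinases and scaffolds (Lats1 and Amot are also counted among the paralogues below), 6 were higher and 8 lower at 1 % O2 without stimulation, 5 higher and 6 lower with it, 1 higher and 4 lower after stimulation at 5 % O2, and 4 higher and 5 lower at 1 % O2. Mob1a, the LATS cofactor, was lower in 1 % CTRL than in 5 % CTRL (4094 ± 209 against 5626 ± 168, log2 difference -0.46, limma adjusted p = 4.40e-14), as was Lats1, the paralogue of Lats2 (2448 ± 152 against 3183 ± 111, log2 difference -0.38, limma adjusted p = 8.62e-11). Stk3, which encodes MST2, was higher (1367 ± 129 against 993 ± 50.1, log2 difference 0.46, limma adjusted p = 3.73e-10). Stimulation was followed by lower Frmd6, a scaffold of the FERM family, at 5 % O2 (log2 difference -0.22) and at 1 % O2 (log2 difference -0.28). Taok3, a kinase upstream of the cascade, had an interaction of 0.38 (limma adjusted p = 6.19e-05), with log2 differences after stimulation of -0.19 at 5 % O2 and 0.19 at 1 % O2.

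Of the 8 genes for TEAD factors and their VGLL cofactors, 7 had enough reads. Tead2 (1057 ± 69.1 in 1 % CTRL against 727 ± 24.6 in 5 % CTRL, log2 difference 0.54, limma adjusted p = 1.91e-12) and Vgll4 (1527 ± 49.8 against 1097 ± 37.4, log2 difference 0.48, limma adjusted p = 1.99e-13), a VGLL protein that competes with YAP for TEAD, were higher at 1 % O2. Vgll3 was lower (6943 ± 231 against 8692 ± 316, log2 difference -0.32). After stimulation 0 of the 7 were higher and 4 lower at 5 % O2, and 0 higher and 3 lower at 1 % O2, where without 1 % CTRL replicate 1 the count was 5 lower. The counts of 0 were from limma, and 0 were higher at an unadjusted p under 0.05 or by edgeR, DESeq2 or limma voom. Vgll4 fell by 0.21 on the log2 scale at 5 % O2 and by 0.36 at 1 % O2, and Tead4 was lower at 1 % O2 (log2 difference -0.26, limma adjusted p = 6.90e-07).

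Paralogues of the members gave 1 higher and 5 lower of 8 at 1 % O2 without stimulation and 1 higher and 6 lower with it. Wisp1, another CCN gene, was lower at 1 % O2 like Cyr61 and Ctgf (8153 ± 165 in 1 % CTRL against 14734 ± 387 in 5 % CTRL, log2 difference -0.85, limma adjusted p = 2.33e-22), and was higher after stimulation, at 5 % O2 (log2 difference 0.27, limma adjusted p = 1.34e-08) and at 1 % O2 (log2 difference 0.15, limma adjusted p = 2.17e-04). Wisp2 was lower at 1 % O2 (log2 difference -0.49). Amot, which encodes angiomotin, was lower after stimulation at 1 % O2 (log2 difference -0.19, limma adjusted p = 1.62e-05) with an interaction of -0.21 (limma adjusted p = 8.87e-04), of the same sign as those of Amotl1 and Amotl2.

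The list of 20 SRF/MRTF genes holds cytoskeletal targets of SRF, together with Srf itself and Mkl1 and Mkl2, which encode its MRTF coactivators that respond to actin. After stimulation at 5 % O2, 15 of the 20 were lower, Srf among them, and 1 was higher. The higher one was the coactivator gene Mkl2 (log2 difference 0.19, limma adjusted p = 3.07e-04), which is named after its values were seen. Under rescaling to equal totals the counts were 14 lower and 1 higher. At 1 % O2, limma called 8 of 20 lower and 0 higher, as did edgeR, DESeq2 and limma voom for the higher ones, and 0 were higher at an unadjusted p under 0.05. Without 1 % CTRL replicate 1 the count was 11 lower. Srf itself was lower in 5 % STIM (1923 ± 165 against 2505 ± 106, log2 difference -0.38, limma adjusted p = 3.93e-06), as were Actb (log2 difference -0.36) and Cnn2 (log2 difference -0.35). With O2 the list was mixed, with 7 higher and 8 lower without stimulation, or 10 and 7 after rescaling, and 9 higher and 3 lower with it. Myl9, the regulatory myosin light chain, was higher at 1 % O2 (5366 ± 303 against 3536 ± 206, log2 difference 0.60, limma adjusted p = 2.35e-15), and Vcl, vinculin, was lower (log2 difference -0.30, limma adjusted p = 7.71e-12).

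**Figure D5:**
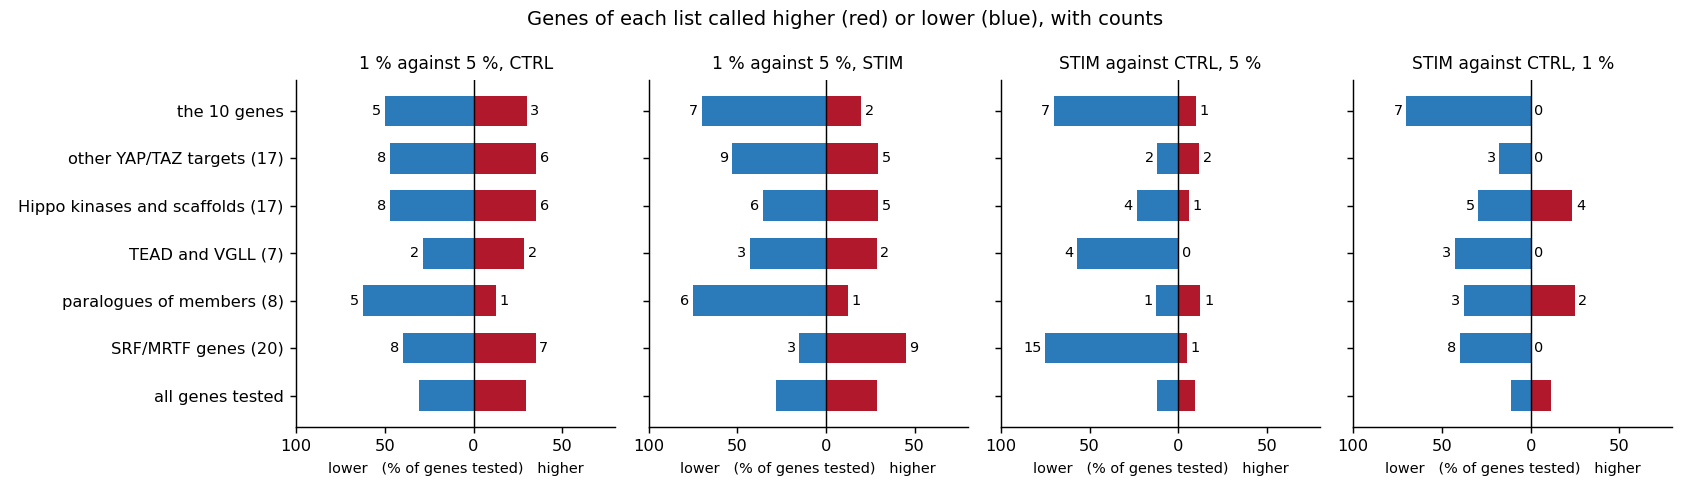
Share of the tested genes of each list (percent, horizontal axes) called higher (red, to the right) or lower (blue, to the left) in 4 comparisons, with the counts beside the bars and all genes tested in the lowest row. After stimulation, 7 of the 10 genes were lower at each O2 level, and 15 of 20 SRF/MRTF genes were lower at 5 % O2.

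Markers of differentiation moved with the same conditions. By limma, 6 of 8 myotube markers were lower at 1 % O2 without stimulation, 5 with it, 3 after stimulation at 5 % O2 and 2 at 1 % O2, and 0 were higher in any of these, also at an unadjusted p under 0.05 and by edgeR, DESeq2 and limma voom. Their summed level lay between 332029 and 360812 normalised counts in 5 % CTRL, between 275737 and 308685 in 1 % CTRL, between 301277 and 343812 in 5 % STIM and between 271008 and 302990 in 1 % STIM. Myog, the myogenic factor of differentiation, was lower in 1 % CTRL than in 5 % CTRL (log2 difference -0.66) and in 5 % STIM than in 5 % CTRL (log2 difference -0.53). Of 8 myoblast and cycling markers, 4 were higher and 3 lower at 1 % O2 without stimulation, with sums between 3590 and 3982 in 5 % CTRL and between 4128 and 6194 in 1 % CTRL. Sums lay between 3899 and 4569 in 5 % STIM and between 4305 and 5279 in 1 % STIM. The part of the markers in the differences of the 10 genes was not tested.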

How the data were processed

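RNA of 24 libraries of C2C12 myotubes was sequenced by the authors as stranded single-end mRNA libraries, aligned to the mouse genome GRCm38 with STAR 2.5.4b and quantified with RSEM 1.3.0 after FastQC 0.11.7. The deposited signal of each gene is its count divided by a DESeq2 size factor. Whole reads could be recovered for 100 % of values (tolerance 0.01 reads). A second deposited table holds the authors' own comparisons and was not used. The study's methods give 6 biological replicates per group. The labels name no separate cultures, so p-values measure only the spread between these libraries, which may be technical.

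Genes with a normalised count of at least 10 in at least 6 libraries (14541 of 55487) were compared as log2(normalised count + 1) with limma 3.58.1 (R 4.3.3, moderated variances with trend and robust options), with all 4 groups in 1 model. P-values were adjusted by Benjamini and Hochberg across every gene tested, and 0.05 was the threshold. Fold changes are on this log2 scale. Counts were also tested with edgeR 4.0.16, DESeq2 1.42.0 and limma voom. Other alternatives were a pseudocount of 10, no filter, a threshold of 0.01, a replicate block, models holding only the groups under comparison, rescaling of libraries to equal totals, array weights, and each library left out. The ratios per kb and the counts of lists under each setting were added after seeing the data.

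Exon lengths came from GENCODE M21, which holds 55227 of the gene identifiers, and promoter windows from RefSeq. Depth was 26541858 to 28173745 reads per library. The lowest chi-square per gene between replicates was 2.57, so no library was a copy of another. Scripts were tested on simulated data. Named genes were all 10 members and, in each list, up to 3 called genes per comparison with the largest differences. The members and lists were chosen with earlier results of these data known.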

Additional observations from a re-analysis of the deposited data

Results flagged for a closer look

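Among the 40 gene and group combinations of the 10 genes, 2 held a library far from the others of its group, where chance gives about 1 in 20. Ctgf in 1 % CTRL replicate 1 was 11422 normalised counts, below the other libraries of that group. Ankrd2 in 1 % CTRL replicate 3 was 1468 normalised counts, above the other libraries of that group.

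The response to stimulation differed between 1 % and 5 % O2 by the limma interaction (log2 response at 1 % minus that at 5 %) for Ankrd1 (0.29), Amotl1 (-0.15) and Amotl2 (-0.46). In the wider lists it did so for Gadd45b (-0.53), Tgfb2 (-0.19) and Arhgef17 (-0.16) among other YAP/TAZ targets, and for Taok3 (0.38), Amot (-0.21) and Lats1 (0.17) among Hippo kinases and scaffolds. It also did so for Tead4 (-0.16), for the cytoskeletal genes Zyx (0.25) and Tagln2 (0.15), for the myosin gene Myh3 (0.16) and for the cell cycle kinase gene Cdk1 (-0.48).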

How the results depend on the processing

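The number of the 10 genes called kept within 1.5 times its value under every alternative run, from 6 to 8 at 1 % O2 without stimulation, 7 to 10 with it, 6 to 8 after stimulation at 5 % O2, 6 to 7 at 1 % O2 and 2 to 4 for the interaction. Over 50 single values, leaving out a library changed the call in 13 of 1200 refits, and the other alternatives did so in 16 of 490. The 1200 include refits that left out a library from outside the compared groups, where the log2 difference could not change. Rescaling to equal totals turned the sign of Wwtr1 at 1 % O2 without stimulation (0.014, limma adjusted p = 0.650, against -0.07). In that comparison rescaling also moved the median log2 difference of all genes tested from 0.0015 to 0.08. The cause of this shift of all genes was not tested. At a threshold of 0.01 the calls over all genes were 1944 in place of 3115 after stimulation at 5 % O2, 2165 in place of 3245 at 1 % O2 and 830 in place of 1645 for the interaction, which array weights raised to 2410.

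With the replicate number as a block, 8, 9, 8 and 7 of the 10 genes were called in the comparisons of O2 without and with stimulation and of stimulation at 5 % and 1 % O2, and 3 for the interaction, the same as without pairing. Libraries sharing a number deviated together little, if at all. The mean correlation of their deviations was 0.0079 (36 pairs, from -0.148 to 0.155), against -0.0014 for other numbers (180 pairs). Of 24 libraries, 7 correlated best with their own number. These values cannot show whether the cultures were paired by design. Depth did not limit the 10 genes, with at least 1309 reads each per library.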
